A study of Mus musculus with 6 samples.

Results

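The 8 phosphodiesterase genes described here are Pde2a, Pde3a, Pde3b, Pde4a, Pde4b, Pde4d, Pde7a and Pde8a. Members were all probe sets of an Affymetrix whole-genome mouse array that the platform annotation assigns to exactly 1 gene symbol, where that symbol is one of the 8, which gave 25 of 34945 such probe sets and 8 of 18193 genes. RNA came from hearts of mouse embryos at E10.5 on the C57BL/6N background, on 3 wild-type (WT) arrays and 3 arrays of a global RhoE knockout (KO) made with a gene trap. RhoE is the protein of the gene Rnd3, an atypical small GTPase that restrains the kinase ROCK1. The trap is global, so it is not limited to heart muscle, and per the series' design text the knockout embryos die from about this stage on. No label says whether an array holds 1 heart or several, and the labels tie no array to a litter, so p-values measure the spread between these arrays, which may be technical.

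Cyclic nucleotide phosphodiesterases hydrolyse the second messengers cAMP and cGMP and so end or confine the signals that adenylyl and guanylyl cyclases start. In heart muscle they shape how beta-adrenergic stimulation reaches protein kinase A, the calcium channels and the sarcoplasmic reticulum, and different enzymes act in different compartments of the cell. Members of the PDE4, PDE7 and PDE8 families are specific for cAMP. PDE3 and PDE2 enzymes hydrolyse both, PDE3 being inhibited and PDE2 stimulated by cGMP.

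Values are MAS5 signals on a linear scale, and a probe set was tested where it lay above a low-signal limit on at least 3 of the 6 arrays. That limit, each array's 40th percentile, ranged from 44.5 to 52.8 and is a working choice rather than a measured background. Each gene is represented by the probe set with the highest mean log2 signal. Rnd3 itself read 862 to 954 in WT and 5.89, 12.3 and 121 in KO (limma adjusted p = 0.0344). Heart muscle was represented on all arrays, with a summed signal of 8 cardiomyocyte markers of 247129 to 263976 in WT and 230160 to 258984 in KO. Summed signals overlapped between the groups for all 10 cell type lists, but 7 of 7 tested liver and yolk sac endoderm markers had negative log2 fold changes (sum 1668 to 7721 in WT, 480 to 2159 in KO) and Alb fell (log2 fold change -1.97, adjusted p = 0.049997, just under the threshold). Alb was dim, at 87.8, 148 and 183 in WT and 51.9, 36.8 and 20.7 in KO, with only 1 KO array above the limit. Of 5 tested macrophage markers Lyz2 rose (log2 fold change 1.38, adjusted p = 0.0374), with a list sum of 892 to 902 in WT and 861 to 2122 in KO and Aif1 below the limit on every array, and the other 4 did not pass (-0.17 to 0.12). Of 5 platelet markers Ppbp rose (log2 fold change 1.02, adjusted p = 0.049997, just under the threshold), with sums of 1493 to 1938 and 1856 to 2365, and the other 4 did not pass (-1.29 to 0.37). Xist, which marks female tissue, read 10251 to 12474 in WT but 539, 8884 and 28.4 on KO arrays 1, 2 and 3. The ratio of 3' to 5' Gapdh signal, a sign of RNA integrity, was 1.09 to 1.13 in WT and 0.939 to 0.993 in KO. The part of these differences in the phosphodiesterase values was not tested. All 8 genes were also fitted with the log2 Xist signal as a covariate. No WT array was low in Xist, so sex was largely confounded with the knockout, and that fit cannot separate them. In whole-heart RNA, fewer cells of a type and less RNA per cell cannot be told apart.

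No phosphodiesterase gene of the set passed the test between KO and WT hearts. Pde3b and Pde7a were about 1.33-fold and 1.35-fold lower in KO without overlap between the groups, each at its brightest probe set. Pde3b had 1 probe set, while of the 7 of Pde7a 5 had negative and 2 positive log2 fold changes. Pde4a had a difference of similar size but a wide spread. Pde2a, Pde3a and Pde8a had log2 fold changes close to 0, and Pde4b and Pde4d had small positive ones. All 8 genes were tested, as were 18 of the 25 probe sets. None of the 8 passed limma's test at an adjusted p of 0.05, against 162 of 12712 genes (1.27%), of which 100 were higher and 62 lower in KO, or 253 higher and 59 lower with each array centred on its median. At an unadjusted p of 0.05 the count was 2 of the 8, both lower, where 20.3% of all genes passed in either direction and 11.8% as lower. Groups did not overlap, with KO below WT, for 2 of the 8 genes and for 15.5% of all genes, and with KO above WT for none of the 8 and for 10.8% of all genes. Log2 fold changes of the 8 had a median of -0.09, with 6 negative, against a median of -0.04 and 56.2% negative over all genes tested.

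**Figure D1:**
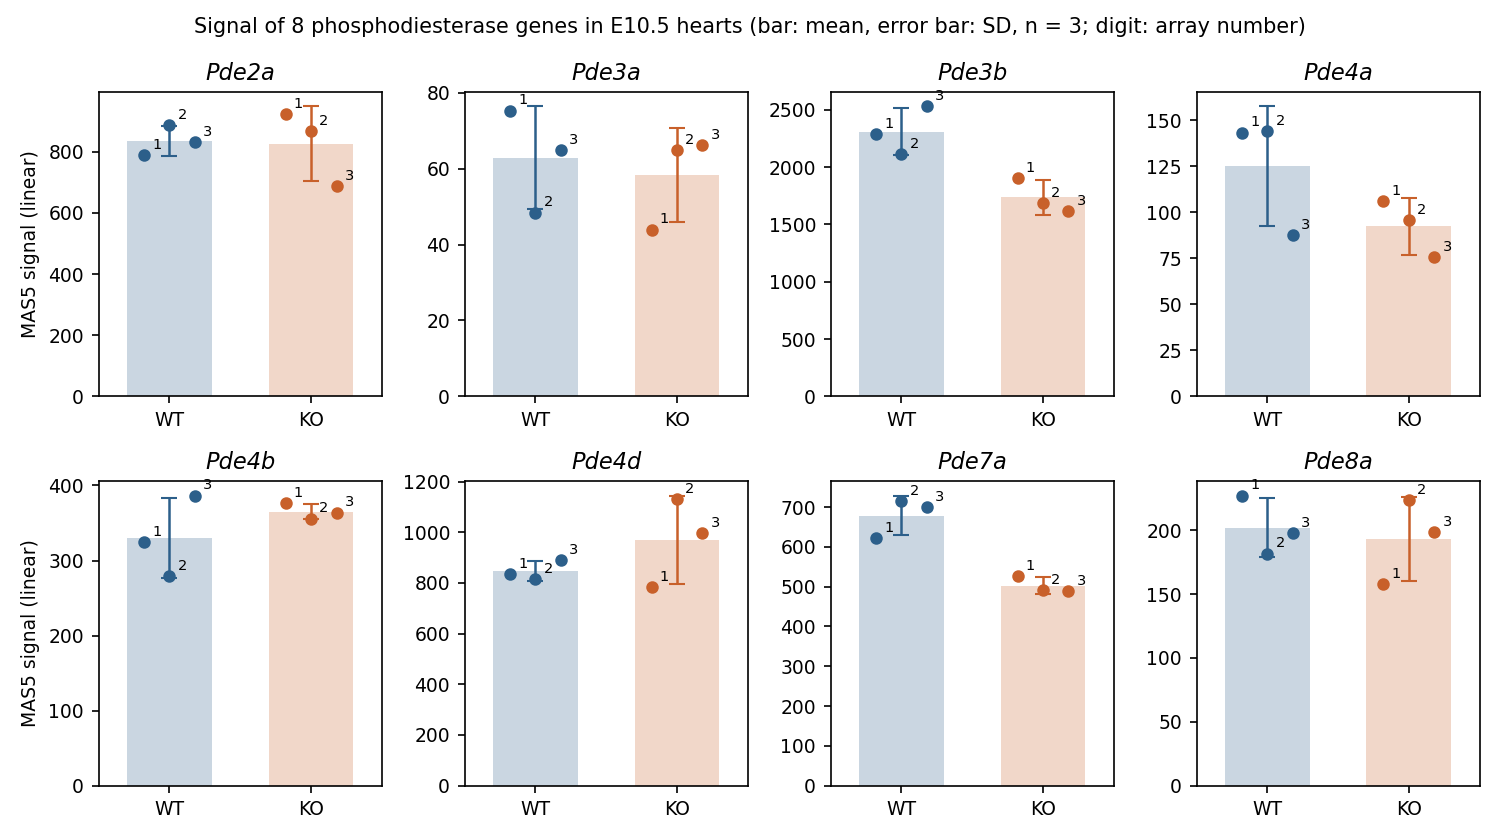
MAS5 signal (linear axis from 0) of the brightest probe set of each of the 8 genes on the 3 WT and 3 KO arrays, with bars at the mean, error bars of 1 SD and digits for the array number. Pde3b and Pde7a are the genes whose WT and KO points do not overlap; levels are not comparable between panels, since each probe set has its own response.

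Among the enzymes of dual specificity, Pde3b, the PDE3 isoform best known from fat, liver and vascular cells and also present in heart, was read by 1 probe set. Its signal was 2285, 2116 and 2529 on WT arrays 1 to 3, compared with 1906, 1683 and 1616 on KO arrays 1 to 3. The lowest WT array lay above the highest KO array, which was KO array 1. The means were 2310 ± 207 and 1735 ± 152 (SD, n = 3 per group), a log2 fold change of -0.41 (SE 0.10, 95% confidence interval -0.64 to -0.19). The unadjusted p was 0.00206 and limma's adjusted p 0.0674. With the Xist signal as a covariate the value was -0.38 (adjusted p = 0.168). Without KO array 1 it was -0.48 and passed (adjusted p = 0.0295), as it did with array weights (0.0461), and over 19 alternatives the adjusted p ran from 0.0295 to 0.207.

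Pde3a, the PDE3 isoform prominent in cardiac muscle and platelets, was dim on this array. In WT its brightest probe set gave 75.3, 48.4 and 64.8, and in KO 43.9, 64.8 and 66.2, with 1 array of each group below the limit. The groups overlapped (log2 fold change -0.11, SE 0.36), and the interval of -0.90 to 0.69 spans changes in either direction of over 1.5-fold. Its other 2 probe sets were not tested, and read 6.22 to 63.4 over all arrays.

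Pde2a, the cGMP-stimulated enzyme found in endothelium and heart muscle, had 3 tested probe sets. For the brightest, the WT arrays were at 788, 886 and 832 and the KO arrays at 922, 866 and 688. KO array 1 was the highest of all and KO array 3 the lowest, so that the KO values enclosed the WT values. The log2 fold change was -0.03 (SE 0.13, interval -0.30 to 0.25, adjusted p = 0.928), and its sign turned with quantile normalization, with centring, with probe sets averaged and with the Xist covariate. The dimmer probe sets had 0.36 (SE 0.29) and -0.06 (SE 0.28), each in the fit that tests all probe sets separately.

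The PDE4 genes encode the cAMP-specific enzymes inhibited by rolipram, and each makes several long and short forms from separate promoters. The 250 bases before annotated transcript starts were taken from RefSeq (GRCm38.p6) for 5 of the 8 genes, and windows of Pde3a, Pde3b and Pde7a were not analysed here. They were searched for the cAMP response element TGACGTCA, to which CREB binds, and for its half-site TGACG, whose reverse strand reads CGTCA. The half-site is part of the full element. None of the 14 windows held the full element, which 1.55% of all 32851 windows hold, and 3 held a half-site, against 17.8% of all windows. The windows with a half-site are printed 5′ to 3′ on the plus strand, with the half-site in capitals, because transcription through such elements is a known response to cAMP. They are for Pde4a 1 of 3 windows (chr9:21183851-21184100, half-site starting at -50 from the transcript start), for Pde4b 1 of 4 (chr4:102421305-102421554, at -34) and for Pde8a its 1 window (chr7:81213015-81213264, at -84).
Pde4a: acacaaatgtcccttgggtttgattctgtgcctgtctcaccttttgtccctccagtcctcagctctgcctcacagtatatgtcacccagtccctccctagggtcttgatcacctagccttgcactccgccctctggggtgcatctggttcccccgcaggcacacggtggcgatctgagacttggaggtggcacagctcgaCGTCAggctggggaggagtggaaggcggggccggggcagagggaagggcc
Pde4b: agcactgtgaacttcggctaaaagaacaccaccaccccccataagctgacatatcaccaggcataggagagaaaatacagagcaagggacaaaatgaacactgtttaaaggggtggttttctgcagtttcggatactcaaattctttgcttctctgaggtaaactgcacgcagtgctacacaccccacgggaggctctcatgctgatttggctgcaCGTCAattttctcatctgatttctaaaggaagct
Pde8a: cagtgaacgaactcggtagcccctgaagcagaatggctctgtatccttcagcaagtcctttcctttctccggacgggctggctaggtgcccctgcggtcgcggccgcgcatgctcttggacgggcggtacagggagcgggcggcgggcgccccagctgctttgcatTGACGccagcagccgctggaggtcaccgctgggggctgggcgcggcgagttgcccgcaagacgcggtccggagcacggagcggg
The letters are a description of these windows, and binding there was not measured.

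Pde4a was read by 1 probe set, at 143, 144 and 87.5 in WT and 106, 95.6 and 75.7 in KO. All 3 KO arrays lay below the WT mean, but WT array 3 lay within the KO range. The log2 fold change of -0.41 (SE 0.27) had an interval of -1.01 to 0.19 and did not pass (adjusted p = 0.431). It was -0.65 without WT array 3 and -0.27 without KO array 3, and -0.23 with the Xist covariate.

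Pde4b, the PDE4 gene that limits cAMP in immune cells and at calcium channels of heart muscle, had 6 probe sets, of which 3 were tested. The brightest read 324, 279 and 386 across the WT arrays, and its KO values were 376, 356 and 364. WT array 3 was the highest of all, and the KO arrays lay close together between the WT values (0.16, SE 0.14, adjusted p = 0.572). The value was 0.04 without WT array 2 and 0.28 without WT array 3. Another probe set, designed from the same source transcript, was at 269, 319 and 330 in the WT arrays, while the KO arrays gave 361, 379 and 334, with KO above WT on every array (0.23, SE 0.14, adjusted p = 0.415). Over all tested probe sets, 10.4% had KO above WT without overlap. The dimmest of the 3 had -0.28 (SE 0.33), with KO array 3 at 54.9 against 110 to 132 on the other 5 arrays.

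Pde4d, which associates with beta-adrenergic receptors and with the ryanodine receptor complex, measured 834, 816 and 889 in WT against 785, 1130 and 996 in KO. KO arrays 2 and 3 lay above every WT array and KO array 1 below them all. The spread in KO (SD 174) was larger than in WT (SD 38.4), and the log2 fold change of 0.18 (SE 0.13, interval -0.11 to 0.48) did not pass (adjusted p = 0.483). It was 0.33 without KO array 1 and 0.06 without KO array 2, and 0.54 with its 2 probe sets averaged. The other of these was below the limit on all arrays, at 4.72 to 19.0.

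Pde7a, a cAMP-specific enzyme insensitive to rolipram, had 7 probe sets, all tested, the most of any of the 8 genes. The probe set that represents it, 1458218_s_at, gave 622, 714 and 700 in WT hearts compared with 528, 492 and 490 in KO hearts, without overlap. The means were 679 ± 49.8 and 503 ± 21.3, a log2 fold change of -0.43 (SE 0.11, interval -0.67 to -0.19). The unadjusted p was 0.00247 and the adjusted p 0.0730. With the Xist covariate the value was -0.42 (adjusted p = 0.157). Without KO array 1 it was -0.47 and passed (adjusted p = 0.0496), as it did with array weights (0.0421), and over 19 alternatives the adjusted p ran from 0.0421 to 0.609.

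Of the 7 Pde7a probe sets, 5 had negative and 2 had positive log2 fold changes. Besides the representative, 1438041_at measured 520, 560 and 491 in WT against 432, 413 and 343 in KO (-0.41, SE 0.13, adjusted p = 0.148 in the fit over all probe sets). A similar size was seen for 1439484_at (-0.50, SE 0.18, adjusted p = 0.183), at 515, 726 and 833 in WT and 514, 530 and 404 in KO, where WT array 1 lay within the KO range. In contrast, 1423314_s_at measured 235, 215 and 224 in WT against 263, 242 and 240 in KO, higher in KO without overlap (0.14, SE 0.14, adjusted p = 0.647). The probe set 1450933_at had 0.38 (SE 0.25), 1423313_at had -0.16 (SE 0.20) and the dim 1451839_a_at had -0.22 (SE 0.42), all with overlap. The average over the 7 was -0.17 (adjusted p = 0.609). Within each array, the log2 signal of 1423314_s_at minus that of the representative was -1.40, -1.73 and -1.64 in WT and -1.01, -1.02 and -1.03 in KO. The group means differed by 0.57, which is given with no test, since the pair was chosen after its values were seen, for differing in opposite directions. The 2 probe sets with positive values, 1423314_s_at and 1450933_at, were designed from the same source transcript as 1423313_at, whose value was negative. Which Pde7a transcripts each probe set reads was not analysed here.

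**Figure D2:**
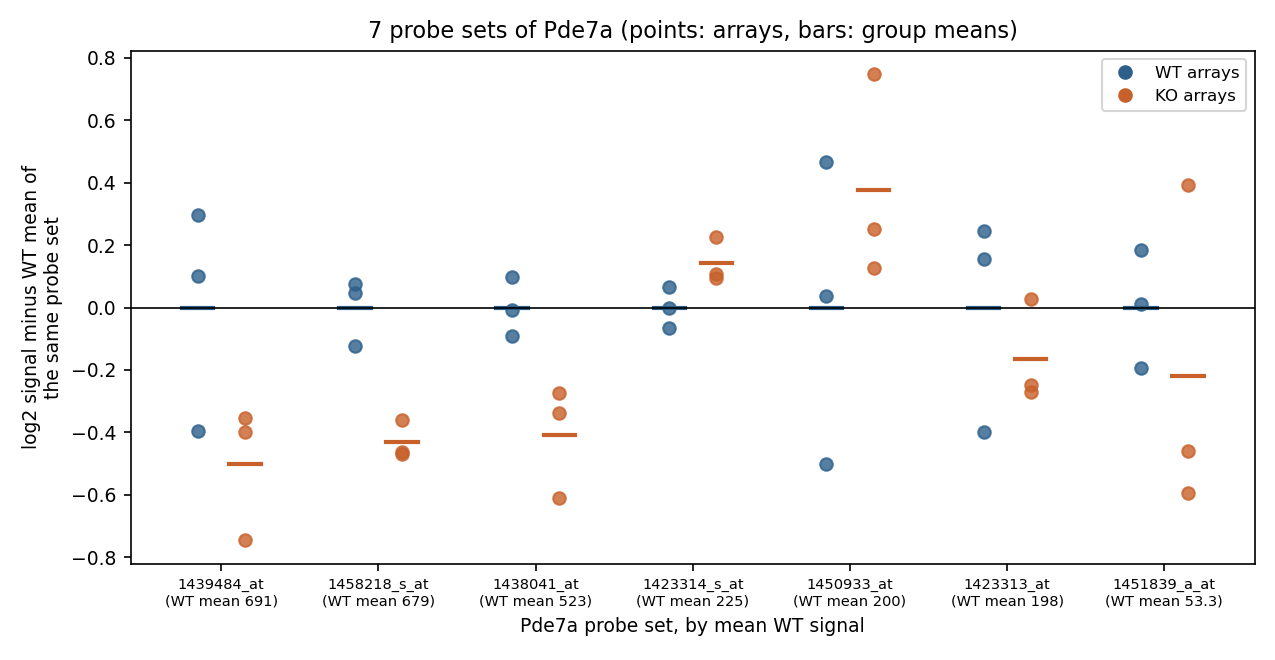
Log2 signal of each of the 7 Pde7a probe sets on each array, minus the WT mean of the same probe set, with points for arrays and short bars for group means. The 3 probe sets with the highest WT signal have KO means between -0.50 and -0.41, while 1423314_s_at (0.14) and 1450933_at (0.38) have KO means above 0.

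Pde8a, a high-affinity cAMP enzyme, measured 227, 182 and 198 in WT against 158, 223 and 199 in KO. The ranges of the groups overlapped (-0.07, SE 0.18, interval -0.47 to 0.33, adjusted p = 0.855). Its second probe set was below the limit on all arrays. Over the 18 tested probe sets of the 8 genes, none passed at an adjusted p of 0.05 (0.63% of all 23339 tested probe sets did). An unadjusted p below 0.05 was seen for 4, all as lower in KO (17.8% of all in either direction and 9.89% as lower). Without overlap, 2 had KO above WT (10.4% of all) and 3 had KO below WT (13.5% of all). Of those 3, 2 were probe sets of Pde7a and 1 of Pde3b.

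Of 18 other listed phosphodiesterase genes, 17 were named on the array, 13 were tested and none passed at limma's adjusted threshold (1 did at an unadjusted p of 0.05), with 6 negative and a median log2 fold change of 0.02. Pde10a, an enzyme of both cyclic nucleotides, measured 159, 194 and 144 in WT against 136, 106 and 91.7 in KO (-0.58, SE 0.22, unadjusted p = 0.0242, adjusted p = 0.178), and was that gene. Its dimmer probe set had 0.05 (SE 0.37), with overlap. Pde5a, the cGMP-specific target of sildenafil, measured 543, 676 and 548 in WT against 533, 509 and 359 in KO (-0.35, SE 0.16, adjusted p = 0.256). The dimmer tested probe sets of Pde5a had -0.35 (SE 0.19) and -0.11 (SE 0.15), both with overlap. Pde1c, activated by calcium and calmodulin, had -0.49 (SE 0.33) and with Pde10a and Pde5a made up the 3 of 13 whose KO values lay below WT without overlap, against 15.5% of all genes. Pde7b, the close relative of Pde7a, had 0.40 (SE 0.22), with 454, 340 and 490 in WT and 414, 793 and 525 in KO. Pde1a had 0.37 (SE 0.25) with KO array 2 at 292 against 137 to 158 on the other 5 arrays. Pde12 had 0.09 (SE 0.11) at its brightest probe set, while another measured 274, 272 and 288 in WT against 219, 202 and 190 in KO, without overlap (-0.45, SE 0.14, unadjusted p = 0.00871, adjusted p = 0.136 in the fit over all probe sets). The remaining genes were Pde8b (-0.46, SE 0.56), Pde1b (-0.11, SE 0.20), Pde6h (-0.02, SE 0.39), Pde9a (0.02, SE 0.22), Pde6d (0.12, SE 0.11), Pde4dip (0.16, SE 0.13) and Pde11a (0.29, SE 0.73). Pde12 is a mitochondrial RNA deadenylase and Pde4dip an anchor for PDE4D, so neither hydrolyses cyclic nucleotides. The photoreceptor genes Pde6a, Pde6b and Pde6c were below the limit on all 6 arrays.

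**Figure D3:**
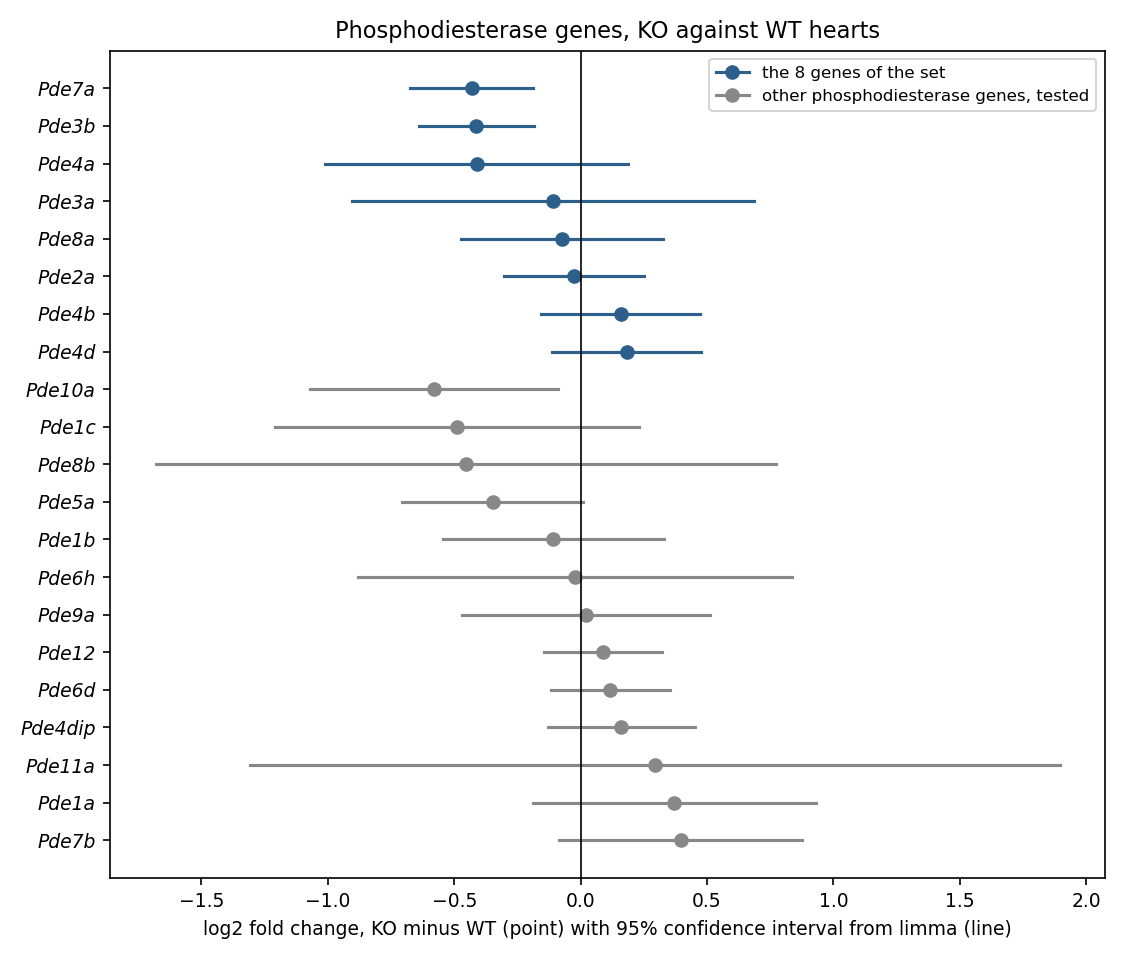
Log2 fold change, KO minus WT, with limma's 95% confidence interval for the 8 genes (blue) and the 13 other tested phosphodiesterase list genes (grey). The intervals of Pde7a, Pde3b and Pde10a lie below 0, but none of these genes passed after adjustment over 12712 genes.

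Genes on either side of the phosphodiesterases were compared from the same fit. Over the 7 pathway lists, the other phosphodiesterases included, none of 77 tested genes passed limma's adjusted threshold and 12 had an unadjusted p below 0.05, against 20.3% of all genes tested. Among 11 tested adenylyl cyclase genes, which include the cyclase-associated proteins, 7 were negative (median -0.05). Adcy5, a main cyclase of heart muscle, measured 527, 477 and 489 in WT against 456, 397 and 355 in KO (-0.31, SE 0.13, adjusted p = 0.203), and the actin-binding cyclase-associated protein gene Cap1 had -0.28 (SE 0.10, adjusted p = 0.160). Of 6 G protein genes 4 were negative (median -0.05), with Gnaz at -0.56 (SE 0.26) and Gnal at -0.35 (SE 0.31). Of 9 genes of cGMP synthesis and response 5 were negative (median -0.01). Prkg1, the cGMP-dependent protein kinase, had the smallest p of all 77, with 1752, 1491 and 1550 in WT and 1336, 967 and 1030 in KO (-0.54, SE 0.13, adjusted p = 0.0631). The natriuretic peptide receptor gene Npr2 had -0.33 (SE 0.17).

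Among 19 tested cAMP effectors 10 were negative (median -0.0022). Crtc1, a coactivator of CREB, measured 159, 174 and 173 in WT against 235, 243 and 251 in KO (0.53, SE 0.15, adjusted p = 0.0924), while Popdc2, a cAMP-binding membrane protein of heart muscle, had -0.33 (SE 0.12, adjusted p = 0.170). Of 17 anchors and partners of phosphodiesterases 11 were negative (median -0.05). Akap5, which tethers protein kinase A at the membrane, measured 515, 454 and 422 in WT against 352, 274 and 311 in KO (-0.57, SE 0.14, adjusted p = 0.0641). Akap12, another anchor, had -0.45 (SE 0.15, adjusted p = 0.130). The cAMP exporter genes Abcc4 and Abcc5 had -0.09 (SE 0.18) and 0.25 (SE 0.23).

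**Figure D4:**
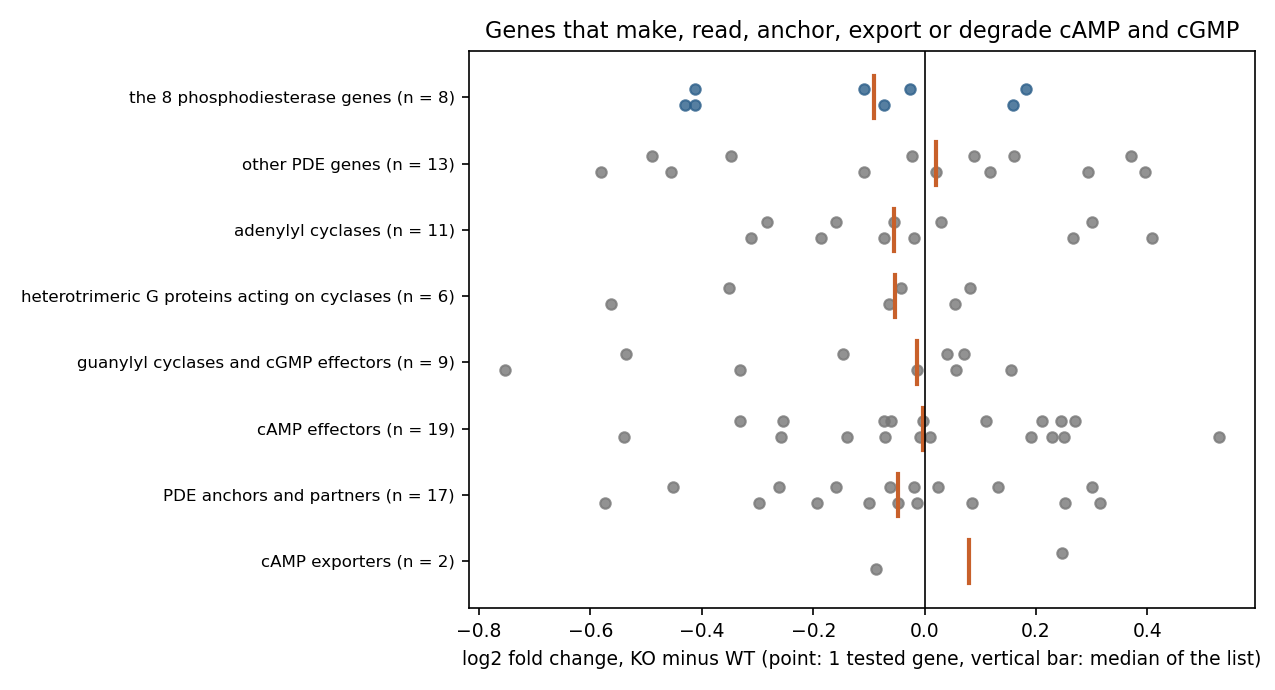
Log2 fold change, KO minus WT, of every tested gene (points) of the 8-gene set and of 7 lists of cyclic nucleotide signalling, with a vertical bar at each list's median. Every list spreads over both sides of 0, and the medians lie between -0.09 for the 8 genes and 0.08 for the exporters.

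The genes whose profile over the 6 arrays lay closest to Pde3b and Pde7a were found by the root mean square difference of log2 signals, each centred on its mean. For Pde3b these were Cln8, a membrane protein gene of the endoplasmic reticulum (0.0345), Elp3, the catalytic subunit of Elongator (0.0350), and Cdkn1b, an inhibitor of cyclin-dependent kinases (0.0396), against a median difference of 0.278 over all tested genes. Cdkn1b measured 2048, 1813 and 2259 in WT against 1582, 1480 and 1438 in KO (-0.44, SE 0.10, adjusted p = 0.0609). For Pde7a they were Plekhg2, a guanine nucleotide exchange factor gene (0.0347), Ttyh3, a membrane protein gene (0.0363), and Phf2, a histone demethylase gene (0.0372), against a median of 0.274. Plekhg2 measured 1881, 2063 and 1985 in WT against 1562, 1491 and 1431 in KO (-0.40, SE 0.09, adjusted p = 0.0549). Pde3b and Pde7a differed from each other by 0.107 on this measure. With 6 arrays and 12712 genes, close profiles are a description of these arrays. The genes were chosen for this closeness, so their lower KO signals follow from the choice.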

How the data were processed

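Heart RNA of 3 WT and 3 KO samples at E10.5, grouped by their titles, was hybridised as biotin-labelled cRNA. The authors deposited one signal intensity for each probe set, on a linear scale. The submitters' processing notes name MAS5 and Affymetrix Expression Console, with no version or setting. The mean of each array, trimmed by 2% at both ends, was 500, and the signals were used without rescaling. MAS5 subtracts mismatch signal, which makes dim probe sets noisy, and the number of arrays limits the precision.

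The 64 control probe sets were left out. Of the other 45037, 34945 had 1 gene symbol, 932 several and 9160 none here, and 34741 of the single ones matched RefSeq gene identifiers (GRCm38.p6), with 0 symbols updated. Log2 signals were fitted by lmFit and eBayes, with the variance following the mean signal, in limma 3.58.1 (R 4.3.3). Tests were two-sided, KO minus WT, with Benjamini-Hochberg adjustment over 12712 genes, or over 23339 probe sets where these were tested separately. "Rose" and "fell" mean an adjusted p under 0.05. The fit was also run on simulated data with known changes and independent noise for each gene. That simulation held no array-wide deviations, so it does not bear on how the counts move when 1 array is left out.

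The members, lists and alternatives were chosen with earlier results of these data known. Named genes are the 8 members, Rnd3, Xist and the other tested phosphodiesterases. For each list they include the 2 genes with the smallest p and any past the threshold. Of the cell type lists the text gives those past the threshold, Afp, and sums. Also named are the 3 genes nearest in profile to the 2 members with the smallest p, gene models without an official name skipped. Per the design text the embryos came as pairs of littermates, yet the labels tie no replicate number to a litter, and same-numbered WT and KO arrays did not deviate together (r = 0.02 to 0.06), so the numbers were not used as pairs. Alternatives covered normalization, centring, a floor, a pseudocount, filters, probe set choice, array weights and other variance models. They also covered a replicate block, the Xist signal as a covariate and leaving out each array.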

Additional observations from a re-analysis of the deposited data

How the results depend on the processing

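The count of 162 genes past the threshold moved with the processing. It was 312 with each array centred on its median, 291 with probe sets above the limit on all 6 arrays, 542 with array weights and 83 when all probe sets were tested separately. It was 1 without the filter, 1 without the intensity trend, 0 with the probe sets of each gene averaged, and 6 with the Xist covariate, and leaving out 1 array gave 0 (without WT array 1 or 2) to 916 (without KO array 1). The count of 0 among the 8 phosphodiesterase genes became 2 (Pde3b and Pde7a, both lower) with array weights, and leaving out 1 array gave 0 to 2, the 2 being without KO array 1. Among their 18 tested probe sets, leaving out 1 array gave 0 to 1, the 1 being without KO array 1. In that setting 916 of 12712 genes passed, and the share over all probe sets was not counted. Of 148 alternative values of the 8 genes, 133 kept direction and side of the threshold, 4 newly passed (Pde3b and Pde7a) and 11 turned sign. Pde2a turned to 0.0030 with quantile normalization, 0.024 with centring, 0.090 with probe sets averaged and 0.16 with the Xist covariate, and leaving out 1 array gave -0.11 to 0.10 (0.02 without WT array 2). Pde3a ran from -0.28 to 0.084 (0.03 without WT array 1), and Pde8a from -0.19 to 0.065 (0.01 without WT array 1) and was 0.0087 with the Xist covariate. The cause was not tested. With the replicate number as a block, 189 genes and none of the 8 passed (Pde3b adjusted p = 0.0763, Pde7a 0.0953), and not every array correlated best with its own number. With a gene's probe sets averaged, 3 of the 8 genes were too dim to be tested, and Pde3a was also left out by the strict filter. With 3 arrays per group, dim signals limit Pde3a (SE 0.36) and Pde4a (SE 0.27).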
